A study of Mus musculus with 6 samples.

Results

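Messenger RNA of 7 genes for ATP-binding cassette (ABC) exporters of drugs and conjugates was followed in mouse dendritic cells: Abcc1, Abcc3, Abcc4, Abcc5, Abcb1a, Abcb1b and Abcg2. They were found by gene name among 36706 genes. The cells were grown from wild-type (WT) bone marrow with GM-CSF, a cytokine that drives marrow precursors towards dendritic cells and macrophages, at 20 ng/mL. The 3 libraries of the first group, IFN-γ+4-OI, were made from cells that received both interferon gamma (IFN-γ) and 4-octyl itaconate (4-OI), an ester of the metabolite itaconate that enters cells. The 3 libraries of the second group, IFN-γ, came from cells given the interferon alone, so that every library is from interferon-treated cells and none from untreated ones. The dose of either agent, the duration, the animals and any batch are not given in the labels, and sample titles call the cells macrophages where the cell type label says dendritic cells. Levels are given as CPM, a gene's share of a library's counts scaled by the TMM factors. For comparison with the marker counts that follow, 22.7% of all genes tested were higher and 25.4% lower with 4-OI. Of 13 tested markers of conventional dendritic cells, 10 were lower and 1 higher with 4-OI, with a median log2 fold change of -0.75. Cd209a was near 0. Itgax averaged 214 CPM with 4-OI and 514 CPM without. Of 12 tested macrophage markers, 2 were higher, 3 lower and 7 did not pass, with a median log2 fold change of -0.32. Cd163 was at 0 in all libraries. Adgre1, a single marker of that list, averaged 1334 CPM with 4-OI and 875 CPM without.

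ABC exporters use ATP to pump substrates out across the plasma membrane. The ABCC proteins, also called multidrug resistance proteins, carry organic anions, among them drugs and metabolites that the cell has first tagged with glutathione, glucuronate or sulfate, and also signalling molecules such as leukotriene C4 and cyclic nucleotides. P-glycoprotein, which mice make from Abcb1a and Abcb1b where humans have a single gene, expels mostly hydrophobic compounds that carry no such tag. Abcg2, known as the breast cancer resistance protein, works as a dimer and carries porphyrins, urate and sulfated compounds. In dendritic cells of mice, Abcc1 is known for exporting leukotriene C4 during migration to lymph nodes.

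Libraries held between 19656368 and 29244717 counts, and a gene with 0 counts could still have stood at up to 0.103 to 0.153 CPM (3 counts), a limit that covers counting error only. All 7 genes could be tested: each exceeded the filter's level of 0.400 CPM in 6 of 6 libraries, and none was too low. The first principal component (79.5% of the variance) separated the groups, while 4-OI replicate 3 and IFN-γ replicate 1 stood apart from their own groups on the second (10.7%). No label says that replicates came from separate cultures, and the spread on which the p-values rest may thus be technical. In bulk RNA, a change in the mix of cells and a change per cell cannot be told apart.

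Given 4-OI on top of IFN-γ, the cells held more mRNA of 5 of the 7 exporters and less of 1. Abcc4, Abcb1a and Abcc1 rose 3.65-fold, 3.60-fold and 3.45-fold, Abcc3 2.34-fold and Abcb1b 1.84-fold, while Abcg2 was 2.89-fold lower and Abcc5 did not pass. The test was edgeR's quasi-likelihood test with Benjamini-Hochberg adjustment over all 14011 genes tested, at an adjusted p of 0.05. It called 48.1% of all genes, 22.7% higher and 25.4% lower with 4-OI, against 6 of the 7 exporters, 5 higher and 1 lower. The 3 libraries with 4-OI lay all above the others for 5 of the 7 and all below for 1, and did so for 28.9% and 30.6% of all genes. Under TMM scaling 47.2% of all calls were higher, and under scaling by total counts alone 24.0%. A rise of at least 2-fold was called for 4 of the 7, and for 6.38% of all genes. The median log2 fold change of the 7 was 1.23, against -0.01 over all genes tested.

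**Figure D1:**
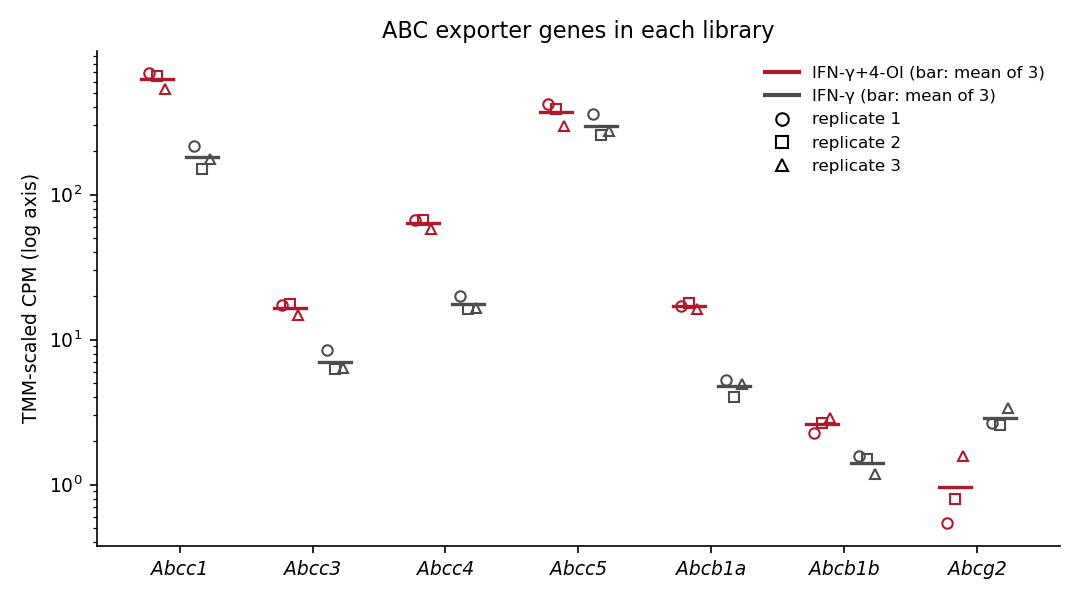
TMM-scaled CPM of each exporter gene in each library, on a log axis; symbols mark the replicate and bars the mean of 3 libraries. The 3 IFN-γ+4-OI libraries lie above the 3 IFN-γ libraries for Abcc1, Abcc3, Abcc4, Abcb1a and Abcb1b and below them for Abcg2; for Abcc5 the groups overlap.

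Sequences are shown first: coding stretches, because they bear on how well Abcb1a and Abcb1b can be told apart, and then bases around the starts of some of the genes. Abcb1a and Abcb1b lie close together on chromosome 5, and their coding sequences, both of 3831 bases, were 87.6% identical in the GENCODE transcripts of GRCm38. Of the 50-base windows of either coding sequence, 20.3% occurred unchanged in the other gene's transcripts. No such window was shared between any other pair of the 7, and the next most alike pair, Abcc1 and Abcc3, was 61.7% identical. The 90 coding bases at which the pair is most alike, which encode part of the first ATP-binding domain, and the 90 at which it is least alike, in the linker between the protein's repeats, are given from 5′ to 3′, with bases that differ in capitals.
Abcb1a, coding bases 1204 to 1293: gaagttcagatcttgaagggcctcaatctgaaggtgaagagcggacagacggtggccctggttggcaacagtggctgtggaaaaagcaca
Abcb1b, coding bases 1213 to 1302: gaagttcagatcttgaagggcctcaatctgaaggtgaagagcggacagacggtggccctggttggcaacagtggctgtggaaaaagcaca
Abcb1a, coding bases 1883 to 1972: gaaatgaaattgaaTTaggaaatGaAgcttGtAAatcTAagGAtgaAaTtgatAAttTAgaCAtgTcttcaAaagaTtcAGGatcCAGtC
Abcb1b, coding bases 1892 to 1981: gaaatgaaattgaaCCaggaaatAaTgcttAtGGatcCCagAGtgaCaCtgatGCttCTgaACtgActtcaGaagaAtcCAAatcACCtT
The first stretch had 0 mismatches and the second 29 of 90. How reads that match both genes were counted is not given in the sources used here, so the balance between Abcb1a and Abcb1b is uncertain.

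RefSeq promoter windows of GRCm38.p6, 250 bases before to 50 after a start, were found for 5 of the 7 genes: Abcb1a, Abcb1b, Abcg2, Abcc4 and Abcc5. They were searched on both strands for TGACNNNGC, the core of the antioxidant response element that NRF2 binds, and for GCGTG, the core of the element bound by the aryl hydrocarbon receptor. The first motif was present in windows of 2 of the 5 genes, Abcb1a and Abcc4, against 13.99% of all genes with a window (12.4% of 32851 windows). The second was present in 2 of the 5, Abcc4 and Abcg2, which have more than 1 window each, against 35.2% of all genes (32.4% of windows). Abcc4 held both, in the 250 bases before a start at chr14:118706220-118706469 on the minus strand, where capitals mark one match to TGACNNNGC, read on the opposite strand as GCNNNGTCA, and a pair of matches to GCGTG, read as CACGC.
Abcc4, before the first start: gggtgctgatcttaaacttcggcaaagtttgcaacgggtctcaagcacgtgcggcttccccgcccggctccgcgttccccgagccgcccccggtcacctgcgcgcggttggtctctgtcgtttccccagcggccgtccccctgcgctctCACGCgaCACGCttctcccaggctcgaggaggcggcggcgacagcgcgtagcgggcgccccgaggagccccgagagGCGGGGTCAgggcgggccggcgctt
Abcc4, before a second listed start (chr14:118676935-118676964, minus strand): aataatctcgTGACTCTGCcgtggtggata
Abcb1a, after the start (chr5:8567107-8567136, plus strand): ctctttgtccGCGGAGTCAgacagaacaag
Both 30-base stretches carry the TGACNNNGC match in capitals, at -23 to -15 bases from the start in Abcc4 and 26 to 34 bases after it in Abcb1a. The matches describe letters in a window, and binding was not measured. Abcb1b, which also rose, held neither motif in its window, nor did Abcc5.

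Among the ABCC exporters of conjugates, Abcc1 was the most abundant with 4-OI, and every 4-OI library stood above every IFN-γ library. It encodes the exporter of glutathione conjugates and leukotriene C4, and lies on chromosome 16 at 14179317 to 14292743, plus strand. It had 687, 654 and 533 CPM in IFN-γ+4-OI libraries 1, 2 and 3, against 215, 151 and 176 CPM in IFN-γ libraries 1, 2 and 3. The groups did not overlap, and the lowest 4-OI library, replicate 3, stood well above the highest IFN-γ library, replicate 1. Abcc1 averaged 625 ± 80.8 CPM with 4-OI and 181 ± 32.0 CPM without (SD, n = 3 each; log2 fold change 1.79 ± 0.15, SE; edgeR adjusted p = 5.63e-05), a fold change with a 95% interval of 2.69 to 4.43. Only 2.32% of all genes tested had a larger log2 fold change.

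Abcc4 encodes an exporter of cyclic AMP and prostaglandins and lies on chromosome 14 at 118720104 to 118945475, minus strand. Its mRNA stood at 67.3, 66.3 and 58.3 CPM in the 4-OI libraries, against 19.9, 16.2 and 16.6 CPM in the IFN-γ libraries. Again the groups were well apart and 4-OI replicate 3 was the lowest of its group. The means were 64.0 ± 4.94 CPM with 4-OI and 17.5 ± 2.02 CPM without (log2 fold change 1.87 ± 0.11, SE; edgeR adjusted p = 1.02e-05), with a 95% interval of 3.05-fold to 4.37-fold. The rises of Abcc4, Abcb1a and Abcc1 lay within 1 SE of each other and were not ranked.

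Abcc3, an exporter of glucuronate conjugates known chiefly from liver and gut, was less abundant. It lies on chromosome 11 at 94234121 to 94283843, minus strand. The 4-OI libraries held 17.3, 17.5 and 14.7 CPM, against 8.51, 6.25 and 6.37 CPM in the IFN-γ libraries. No value of one group reached the other, and the averages were 16.5 ± 1.54 CPM with 4-OI and 7.04 ± 1.27 CPM without (log2 fold change 1.23 ± 0.14, SE; edgeR adjusted p = 2.78e-04). Gm51871, on the opposite strand, covers 6.64% of the exon bases of Abcc3, and whether reads were counted by strand is not stated.

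Abcc5, an exporter of cyclic nucleotides such as cyclic GMP, was the exception among the ABCC genes. It lies on chromosome 16 at 20150053 to 20245178, minus strand. Its levels were 423, 389 and 298 CPM in the 4-OI libraries, against 360.3, 256 and 276 CPM in the IFN-γ libraries, and the groups overlapped: 4-OI replicate 3 lay below IFN-γ replicate 1. Averages of 369.9 ± 64.7 CPM with 4-OI and 297 ± 55.6 CPM without gave a log2 fold change of 0.32 ± 0.17 (SE; edgeR adjusted p = 0.161), and the 95% interval of the fold change ran from 0.949 to 1.63. The overlap rested on the libraries that stood apart. Without IFN-γ replicate 1, the log2 fold change was 0.47 (edgeR adjusted p = 0.0159). Without both that library and 4-OI replicate 3 it was 0.61 (edgeR adjusted p = 2.02e-13). For Abcc5, IFN-γ replicate 1 was the highest of its group and 4-OI replicate 3 the lowest of its own. Leaving them out thus widened the gap by construction, and the p-values of these fits are no independent test of Abcc5. Scaled by total counts alone, the log2 fold change of Abcc5 was 0.06 (edgeR adjusted p = 0.814), with a shift of the median of all genes to -0.27 under that scaling.

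Those 2 libraries were also the extremes for other exporters. IFN-γ replicate 1 had the highest CPM of its group for 6 of the 7 genes, all but Abcg2. 4-OI replicate 3 had the lowest of its group for 5 of the 7, all but Abcb1b and Abcg2. The share of all genes with such extremes was not counted, so these counts are not read as a trait of the exporters. Without both libraries, 6 of the 7 exporters were called higher and 1 lower. Of all 14086 genes tested in that setting, 4601 were called higher and 4695 lower, also more than with all libraries. The log2 fold changes of Abcc1, Abcc4 and Abcc3 were then 2.03, 2.03 and 1.46. The part that this spread had in the results was not tested further.

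**Figure D2:**
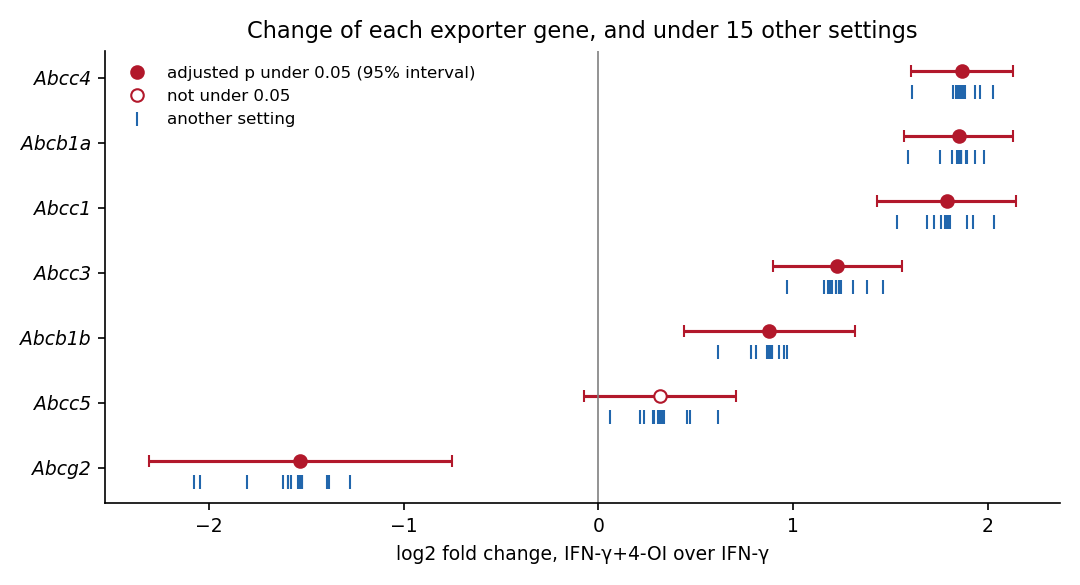
Log2 fold change of each exporter gene, IFN-γ+4-OI over IFN-γ, with its 95% interval (circles), and the value under each of 15 other settings of the processing (ticks). Abcc5 alone has an interval that crosses 0; its other values run from 0.06 to 0.61, and those of Abcg2 from -2.08 to -1.28.

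Both genes of P-glycoprotein rose, Abcb1a 3.60-fold and Abcb1b 1.84-fold. They share 20.3% of their 50-base coding windows, and the part of shared reads in the rise of Abcb1b was not tested. Abcb1a (chromosome 5, 8617091 to 8798575, plus strand) had 17.04, 18.0 and 16.3 CPM in the 4-OI libraries, against 5.30, 4.04 and 4.92 CPM in the IFN-γ libraries. The spread within groups was small beside the gap, with averages of 17.1 ± 0.823 CPM with 4-OI and 4.76 ± 0.648 CPM without (log2 fold change 1.85 ± 0.12, SE; edgeR adjusted p = 1.49e-05). Abcb1b (chromosome 5, 8848147 to 8916314, plus strand) was scarce, at 42, 74 and 70 counts in the 4-OI libraries, against 40, 44 and 28 counts in the IFN-γ libraries. After scaling these were 2.28, 2.68 and 2.88 CPM with 4-OI, against 1.58, 1.49 and 1.19 CPM without, and the groups did not overlap (log2 fold change 0.88 ± 0.19, SE; edgeR adjusted p = 0.00604). Gm5106, on the opposite strand, covers 2.87% of the exon bases of Abcb1b, and the strand setting of the counts is not stated.

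Abcb1b took a smaller part of the reads of the pair with 4-OI: 11.8%, 12.98% and 15.02% in the 4-OI libraries, against 23.0%, 27.0% and 19.4% in the IFN-γ libraries. The Wilson 95% intervals of single libraries ran from 8.85% to 18.6% with 4-OI and from 13.8% to 34.3% without, and cover counting error only. The average shares were 13.3% ± 1.63 with 4-OI and 23.1% ± 3.78 without (SD, n = 3 each), a difference of -9.88 percentage points. A two-sided exact permutation test over the 6 libraries gave p = 0.1, the smallest that 3 libraries against 3 allow.

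The third ABC gene of this stretch of chromosome 5, Abcb4, which encodes a phospholipid exporter of bile, lies next to Abcb1b at 8943614 to 9009226, plus strand. It had 44, 46 and 49 counts in the 4-OI libraries, against 13, 10 and 6 counts in the IFN-γ libraries (log2 fold change 2.42 ± 0.30, SE; edgeR adjusted p = 3.46e-04). Its transcripts contain 3.36% of the 50-base windows of the Abcb1a coding sequence and 1.75% of those of Abcb1b. All 3 ABC genes of this stretch were thus higher with 4-OI, and how far reads shared between them add to this was not tested.

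Abcg2 was the only exporter of the 7 that fell, and the scarcest with 4-OI. It lies on chromosome 6 at 58561476 to 58669436, plus strand. Only 10, 22 and 38 counts were found in the 4-OI libraries, against 67, 76 and 79 counts in the IFN-γ libraries. These gave 0.543, 0.796 and 1.57 CPM with 4-OI, against 2.65, 2.58 and 3.35 CPM without. The groups did not overlap, but the 4-OI libraries differed among themselves by more than those of any other exporter in proportion to their mean, and replicate 3 was nearest to the IFN-γ group. The log2 fold change was -1.53 ± 0.34 (SE; edgeR adjusted p = 0.00664), with a range of -2.05 to -1.28 when single libraries were left out.

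Abcg2 is known as a marker of blood stem cells and is expressed in erythroid cells, so markers of such cells were read beside it. Of 8 tested markers of haematopoietic progenitors, 4 were lower and 2 higher with 4-OI, and Mecom was too low to test. Beside these and the marker counts below, 25.4% of all genes tested were lower and 22.7% higher. Cd34 averaged 1.40 CPM with 4-OI and 8.80 CPM without, and Myb 2.55 and 9.67 CPM. The summed level of the list was 1692 to 1996 CPM with 4-OI and 706 to 934 CPM without, of which Procr alone made 1702 and 405 CPM on average. Of 6 erythroid markers, 2 could be tested and both were lower, Tfrc and Epor. Hba-a1 stood at 0 CPM with 4-OI and 0.223 CPM without, and the list summed to 52.0 to 58.4 CPM with 4-OI and 76.7 to 87.3 CPM without. The erythroid markers other than Tfrc and Epor were too low to test, so this sum says little about them. Markers of mast cells and basophils were lower in 6 of 6 tested cases, with sums of 103 to 111 CPM with 4-OI and 341 to 371 CPM without, and Mcpt4 at 0 in all libraries. Monocyte markers were lower in 6 of 9 cases, summing to 5750 to 6825 CPM with 4-OI and 6887 to 7727 CPM without. The part of these cells in the fall of Abcg2 was not tested.

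Levels of different genes can be compared per transcript length, for which the deposited TPM were used. With 4-OI, Abcc1 came first (161, 154 and 107 TPM), followed by Abcc5 (72.1, 66.6 and 43.4 TPM) and Abcc4 (13.7, 13.5 and 10.1 TPM). Abcb1a and Abcc3 came next at 5.86 ± 0.765 and 5.78 ± 1.03 TPM, with ranges that overlapped, and then Abcb1b at 0.923 ± 0.0756 TPM and Abcg2 at 0.449 ± 0.204 TPM. With IFN-γ alone, Abcc5 averaged 64.0 ± 19.8 TPM and Abcc1 53.5 ± 15.8 TPM, with overlapping ranges. Abcc4 and Abcc3 overlapped as well, at 4.48 ± 1.06 and 3.26 ± 0.990 TPM, as did Abcc3 with Abcb1a (2.14 ± 0.516 TPM) and Abcb1a with Abcg2 (1.78 ± 0.269 TPM), and Abcb1b was lowest at 0.664 ± 0.156 TPM. Abcb1b and Abcg2 therefore stood in the opposite order in the groups.

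The shares of Abcc1 and Abcc5 in the summed TPM of the 7 varied less between replicates than their levels did, while with 4-OI those of Abcb1b and Abcg2 varied more. Abcc1 took 61.9%, 62.0% and 62.3% of the summed TPM of the 7 genes in the 4-OI libraries, against 41.0%, 40.4% and 42.2% in the IFN-γ libraries. Abcc5 took 25.3% to 27.7% with 4-OI, against 47.9% to 50.01% without. Within each library, which needs no scaling between libraries, Abcc1 stood at 2.24, 2.31 and 2.46 times the TPM of Abcc5 with 4-OI, against 0.821, 0.814 and 0.881 times without. The summed TPM of the 7 was 172 to 261 with 4-OI and 100.5 to 173 without. TPM are not TMM-scaled, so these sums do not compare the groups, and TMM-scaled levels were not summed. Abcc5, for example, averaged 60.7 TPM with 4-OI and 64.0 TPM without, but 370 and 297 TMM-scaled CPM.

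**Figure D3:**
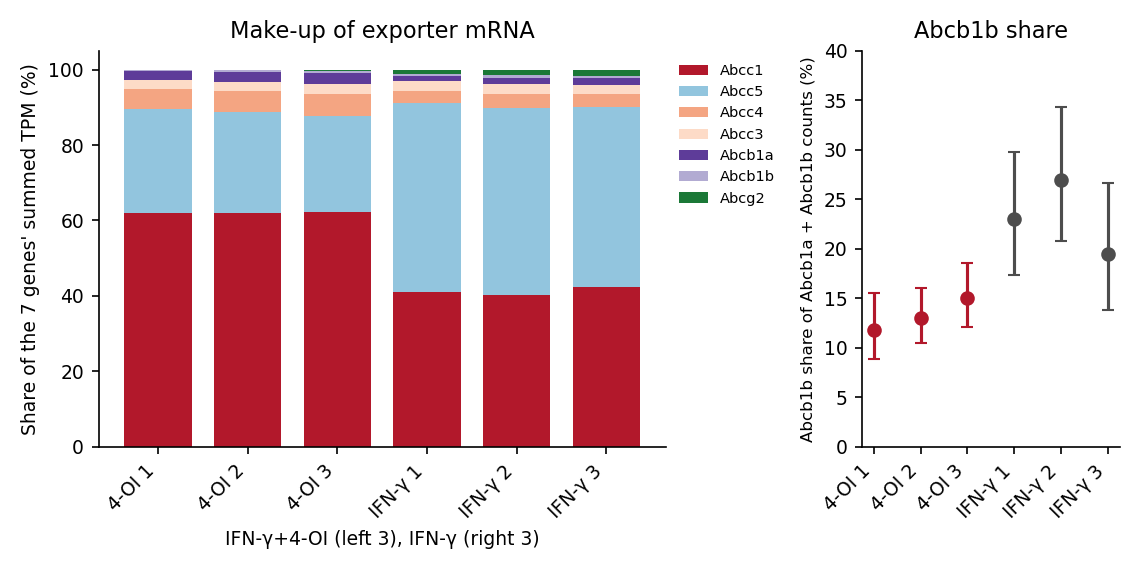
Left, share of each exporter gene in the summed TPM of the 7, per library; right, percent of Abcb1a and Abcb1b counts that belonged to Abcb1b, with Wilson 95% intervals. Abcc1 fills 61.9% to 62.3% of the bar in the 3 IFN-γ+4-OI libraries and 40.4% to 42.2% in the 3 IFN-γ libraries.

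Other ABC transporter genes moved in both directions. Of 39 listed, 28 could be tested, and 5 were higher and 10 lower with 4-OI, with a median log2 fold change of -0.20. Of all genes tested, 22.7% were higher and 25.4% lower. By mean TPM among the 35 tested ABC genes, exporters included, Abcc1 ranked 1 with 4-OI and 7 with IFN-γ alone, where Tap1, the peptide transporter of antigen presentation, ranked 1. Abcc4 ranked 15 with 4-OI and 23 without. Abcc2, which exports conjugates into bile, was among the 11 that were too low to test.

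Besides Abcb4, the other ABC genes with a rise of at least 1.5-fold were Abcb6, Abcd3 and Abca8b. Abcb6, a porphyrin transporter, averaged 16.8 ± 0.877 CPM with 4-OI and 5.57 ± 0.646 CPM without (3.02-fold, edgeR adjusted p = 2.02e-05). Abcd3, which carries fatty acids into peroxisomes, was 2.05-fold higher (edgeR adjusted p = 2.62e-05), and Abca8b 1.85-fold (edgeR adjusted p = 0.00859). Those with a fall of at least 1.5-fold were Abcg4, a sterol exporter, Abca13, Abcg3, Abca7 and Abcb9, with log2 fold changes of -1.79, -2.25, -3.66, -0.59 and -0.87. Abcg3 had 0, 1 and 6 counts with 4-OI, against 40, 32 and 30 counts without, and its log2 fold change was -5.62 without 4-OI replicate 3. Abca13 was high in IFN-γ replicate 1, at 89.98 CPM beside 39.4 and 40.8 CPM in IFN-γ replicates 2 and 3. Abcb9 (edgeR adjusted p = 0.0401) lost its call when any 1 library was left out, with adjusted p of 0.0611 to 0.114. The count of lower genes, 10, became 6 without 4-OI replicate 2, 4-OI replicate 3 or IFN-γ replicate 3.

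**Figure D4:**
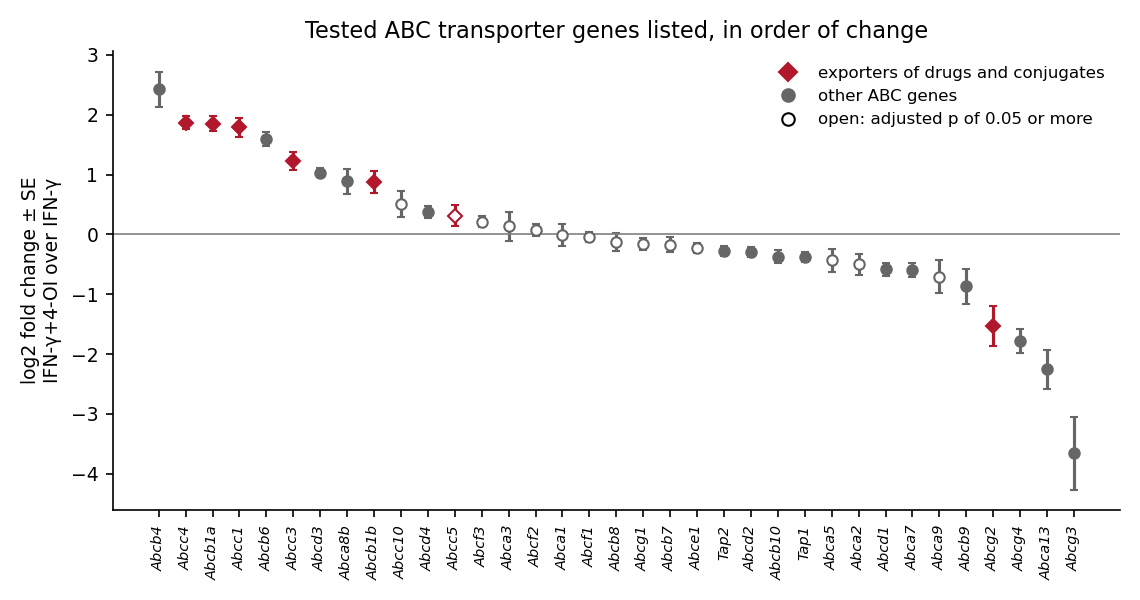
Log2 fold change ± SE, IFN-γ+4-OI over IFN-γ, of the 35 tested ABC transporter genes in order; diamonds are the 7 exporters, and open symbols have an adjusted p of 0.05 or more. Abcc4, Abcb1a and Abcc1 follow Abcb4 at the top, and Abcg2 lies near the bottom, above Abcg4, Abca13 and Abcg3.

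Genes that make the conjugates which these proteins export were counted beside them, where 22.7% of all genes tested were higher and 25.4% lower. Of 25 tested genes of glutathione supply and conjugation, 17 were higher, 3 lower and 5 did not pass, with a median log2 fold change of 0.87. Gsta3, a glutathione S-transferase, averaged 39.3 ± 4.54 CPM with 4-OI and 2.82 ± 0.605 CPM without (edgeR adjusted p = 2.56e-06), and Gclc and Gclm, the subunits of the first enzyme of glutathione synthesis, had log2 fold changes of 3.68 and 3.25. Of 9 tested genes of glucuronate and sulfate conjugation, 4 were higher, 1 was lower and 4 did not pass, with a median of 0.27, and 2 were higher when scaled by total counts alone. Ugp2 and Ugdh, which make the glucuronate donor, were 1.81-fold and 1.75-fold higher, and the sulfotransferase gene Sult1a1 was 2.61-fold lower.

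Among genes for the signalling molecules these proteins carry, 5 of 12 tested for leukotriene and prostaglandin synthesis were higher and 4 lower, with a median log2 fold change of 0.11. Beside these and the cyclic nucleotide counts below, 22.7% of all genes tested were higher and 25.4% lower. Pla2g4a, which frees arachidonic acid, averaged 125 ± 4.21 CPM with 4-OI and 38.8 ± 1.81 CPM without, and Ptgs2, the inducible cyclooxygenase, 721 ± 19.3 and 245 ± 18.1 CPM. Alox5, which starts leukotriene synthesis, averaged 64.7 ± 1.39 CPM with 4-OI and 161 ± 2.10 CPM without (log2 fold change -1.32 ± 0.07, SE; edgeR adjusted p = 6.40e-06). Ltc4s, which makes the leukotriene C4 that Abcc1 exports and was picked out after its values were seen, averaged 107 ± 9.94 CPM with 4-OI and 54.6 ± 9.51 CPM without (log2 fold change 0.97 ± 0.14, SE; edgeR adjusted p = 8.21e-04). Of 21 tested genes for making, degrading or sensing cyclic nucleotides, 2 were higher and 8 lower, with a median of -0.28, and the phosphodiesterase gene Pde4b, the adenylate cyclase gene Adcy6 and Sting1, the sensor of the cyclic dinucleotide cGAMP, fell 1.63-fold, 1.73-fold and 1.56-fold.

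Of 16 tested genes of the heme and porphyrin pathway, 9 were higher and 2 lower with 4-OI, with a median log2 fold change of 0.60, although Abcg2, the porphyrin exporter among the 7, was lower. Blvrb, a biliverdin reductase, averaged 511 ± 26.3 CPM with 4-OI and 102 ± 20.3 CPM without, Flvcr1, described as a heme exporter, was 2.40-fold higher, and Hmox1, which degrades heme, had a log2 fold change of 3.46. Beside these counts and those of the factors below, 22.7% of all genes tested were higher and 25.4% lower. The count of lower heme and porphyrin genes became 1 without 4-OI replicate 1, 4-OI replicate 2 or IFN-γ replicate 3. Of 20 tested genes for factors that act on exporter genes, 8 were higher and 4 lower (2 lower without 4-OI replicate 2 or IFN-γ replicate 3), with a median of 0.11. Mafg and Maff, small MAF partners of NRF2, were 2.34-fold and 2.02-fold higher (edgeR adjusted p = 9.40e-06 and 1.47e-04), and Pparg, a nuclear receptor reported to act on Abcg2 in human dendritic cells, fell to 7.67 ± 0.995 CPM with 4-OI, against 29.1 ± 2.22 CPM without (edgeR adjusted p = 1.19e-05).

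Genes whose log2 CPM followed an exporter most closely over the 6 libraries were named as a description, since libraries of 2 groups give high correlations to any gene that separates them. For Abcc4 they were Slc20a1, Ikbkg and Golim4, for Abcc1 Ahi1, B3galnt2 and Sox4, and for Abcb1a Mturn, Nln and Mcoln2, all with Pearson's r of 0.999 or 1.00. Those of Abcc3 were Ogdh, Sec24d and Ldah (r = 0.999), and those of Abcb1b Gtpbp10, Rnmt and Msl3 (r = 0.989 to 0.995). Of the 8669 other genes with a mean of at least 10 CPM, 945 had an r over 0.95 with Abcc4 and 85 with Abcc5. Abcc5 was followed most closely by Gtf3c4, Mms19 and Golga1 (r = 0.995 to 0.999), and Abcg2 by Tm7sf3, 2310022A10Rik and Ergic1 (r = 0.986 to 0.987).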

How the data were processed

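The authors deposited 1 table per sample with whole-number counts, TPM and FPKM for 36706 genes, per the file headers. HISAT2 and mm10 are named in the submitters' processing notes; which program, strand setting and annotation gave the counts is not stated there. Counts were used as deposited. The deposited TPM matched values recomputed from counts and gene lengths (100% of values within 1e-06 of each other, relative); they served only to compare levels between genes. Gene coordinates are those of the deposited tables: 0 of the 7 starts equal those of RefSeq on GRCm38, although 5 of 7 genes have the same span, so the tables may use another assembly than the notes name. Promoter and transcript letters come from RefSeq and GENCODE on GRCm38. No promoter window was matched for Abcc1 and Abcc3.

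Genes were kept by filterByExpr (minimum count 10), scaled by TMM and tested with edgeR 4.0.16 (R 4.3.3; robust quasi-likelihood test, Benjamini-Hochberg adjusted p under 0.05), with no block. The SE is the log2 fold change over the root of F. On counts simulated for the 14011 genes of this comparison, with 200 changed, the test recovered 37.3%, 76.1% and 93.9% of genes changed 1.5-fold, 2-fold and 4-fold; 8% of its calls were unchanged genes, and the real comparison has many more changed genes. No pair of replicates agreed within sampling noise (chi-square per gene at least 4.07). Alternatives were RLE, upper quartile and no scaling factors, no filter, at least 1 CPM in 3 libraries, DESeq2 1.42.0, limma-voom (limma 3.58.1), the replicate number as a block, leaving out libraries and an adjusted p of 0.01. Coding sequences were aligned with Biopython 1.88.

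The 7 exporters, lists and tests were chosen with earlier results of these data known. Named are the 7; of each list the 3 genes with the smallest p among those passing; of other ABC genes also those passing with a change of at least 1.5-fold; the 3 genes most correlated with each exporter at a mean of at least 10 CPM; and markers.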

Additional observations from a re-analysis of the deposited data

How the results depend on the processing

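The calls of Abcc1, Abcc3, Abcc4, Abcb1a, Abcb1b and Abcg2 and their directions held under all 15 settings tried. Only Abcc5 crossed the threshold. With the replicate number as a block (replicate block) its log2 fold change was 0.32 with an edgeR adjusted p of 0.0215. Without 4-OI replicate 3 and IFN-γ replicate 1 together it was 0.61. Without single libraries it was 0.22 to 0.47, with edgeR adjusted p of 0.0159 to 0.393. The lowest of these, without IFN-γ replicate 1, also crossed the threshold. No label states that the numbers pair the samples. Deviations of same-numbered libraries from their group means correlated at 0.26, -0.10 and 0.19, and 4-OI replicate 2 correlated best with IFN-γ replicate 1. With 3 libraries per group, and 1 in each that stood apart, these values cannot decide whether samples were paired. The block gave 7513 changed genes against 6736. Scaling by total counts only called 1719 genes higher and 5452 lower; the higher ones were 24.0% of calls, where TMM gave 47.2%. List counts were 3 higher and 17 lower for other ABC genes, 2 higher for glucuronate and sulfate conjugation, 1 higher and 13 lower for cyclic nucleotides and 5 higher for regulators. The median of all genes was -0.27 under that scaling, and its part in these counts was not tested. At an adjusted p of 0.01, 2079 genes were higher, and the same numbers of exporters passed, 5 and 1. With no filter, 1 gene of the heme list was lower, and with at least 1 CPM in 3 libraries, 2 uptake carriers were lower, as fewer were tested. Without both libraries that stood apart, 9 other ABC genes were higher and 12 lower, where 4601 and 4695 of all 14086 genes tested were. The cause was not tested. Leaving out single libraries gave 6 to 10 lower among other ABC genes, 1 to 2 lower in the heme list and 2 to 4 lower among regulators. The difference in the Abcb1b share was -11.7 to -7.95 percentage points without single libraries. Of 449 values of 30 named list genes, 438 stayed on their side of the threshold and 11 lost their call, 10 of them of Abcb9 and 1 of Abca8b; none changed direction. Depth limits Abcg2 and Abcb1b most, at 10 to 79 counts per library.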

Other observations

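Uptake carriers, which bring organic anions, cations and peptides into cells, were measured beside the exporters. Of 26 listed genes 13 could be tested, and 6 were higher and 4 lower with 4-OI, with a median log2 fold change of 0.25. Of all genes tested, 22.7% were higher and 25.4% lower. Slc22a4, a carrier of ergothioneine and carnitine, had 155, 153 and 142 CPM in the 4-OI libraries, against 39.3, 36.8 and 39.8 CPM in the IFN-γ libraries (log2 fold change 1.95 ± 0.08, SE; edgeR adjusted p = 2.38e-06). The groups were well apart, with less spread than Abcc1 showed. Slc15a2, a carrier of small peptides, averaged 39.97 ± 0.216 CPM with 4-OI and 12.5 ± 0.678 CPM without (edgeR adjusted p = 4.11e-06). Slco4a1, an organic anion carrier, was lower in all 3 libraries with 4-OI, at 13.2 ± 0.667 CPM with 4-OI and 25.7 ± 1.31 CPM without (edgeR adjusted p = 7.76e-05).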
